A study of Rattus norvegicus with 4 samples.

Results

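The miR-28 and miR-151 hairpins give 4 mature microRNAs, miR-28-5p, miR-28-3p, miR-151-5p and miR-151-3p, which were followed here in the extracellular vesicles (EVs) of 2 rat cell lines. The members were taken by name, as every entry that starts with rno-miR-28- or rno-miR-151-. This gave 4 of the 762 names in the deposited table of 4 libraries and 3 of the 594 names in the deposited table of the PC12 libraries, which does not list miR-28-5p. The family was chosen by name, but selected on results of these libraries as well, among them the counts of miR-28-3p, which differ widely between the cell lines. The differences between the lines are therefore described below and were not tested.

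RMT1, which the labels call a breast cancer line, gave 2 EV libraries, and the series' design text states that its vesicles came from culture supernatant by ultracentrifugation. PC12, a rat pheochromocytoma line that the labels describe by its catecholamine production, gave 1 library titled EVd and 1 titled EVu. The letters d and u are used as names, since the labels do not explain them, and no treatment, genotype or culture time is stated for any group. Whether separate cultures lie behind the RMT1 pair is not labelled. The labels give total RNA as the molecule for RMT1 and "other" for PC12, so cell line and preparation cannot be told apart. In a pool of vesicles, fewer vesicles that carry a microRNA and less of it per vesicle cannot be told apart either. RNA extracted with QIAzol and miRNeasy columns was sequenced as QIAseq small RNA libraries.

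The table of 4 libraries holds 799224 and 716940 counts for RMT1 EV 1 and 2, 338233 for PC12 EVd and 436840 for PC12 EVu, and the PC12 table holds 386957 for EVd and 512244 for EVu. CPM below are counts per 1000000 counts of the library, by these totals, and intervals are exact 95% binomial ones that cover counting error only. The labels were compared with marker microRNAs in the table of 4 libraries. The 7 epithelial names summed to 12109 and 11710 CPM in RMT1 EV 1 and 2, against 201 in PC12 EVd and 213 in PC12 EVu, with none at 0. Of these miR-203a-3p separated the lines least, with 122 and 121 counts in RMT1, 38 in EVd and 33 in EVu. The 6 neuroendocrine and neural names summed to 1509 and 1583 CPM in RMT1, against 41146 in EVd and 53979 in EVu, and among them miR-375-3p and miR-9a-5p had 0 counts in both RMT1 libraries. Most of the RMT1 sum was miR-7a-5p, with 1187 and 1130 counts in RMT1, 6059 in EVd and 6901 in EVu. The neuronal miR-124-3p had 1 count in EVd and 0 in the other libraries.

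A microRNA hairpin is cut into a 5p and a 3p strand, and either strand can be loaded into an Argonaute protein, where its seed, bases 2 to 8, selects the messenger RNAs to be repressed. Usually 1 strand dominates and the other is degraded, and which strand dominates can differ between tissues. In the RefSeq annotation of the rat assembly GRCr8, Mir28 lies within the span of Lpp, which encodes a LIM domain protein of focal adhesions. Mir151 lies within the span of Ptk2, which encodes focal adhesion kinase, and overlaps the entry Mir151b. In human cells miR-28-5p and miR-28-3p have been studied in lymphoma and colorectal cancer, where the arms had different effects. In human liver cancer miR-151-5p has been studied for promoting cell migration. In GRCr8 miR-28-3p lies on chromosome 11 at 89480263 to 89480284 on the minus strand. Per the PC12 table, whose build is not named, it lies on chromosome 11 at 81345228 to 81345249 on the plus strand instead. In the same table miR-151-5p lies on chromosome 7 at 114421168 to 114421188 and miR-151-3p at 114421133 to 114421153, both on the minus strand.

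RefSeq sequences (GRCr8) were found for 2 of the 4 members and for both arms of miR-708, a hairpin within the span of Tenm4 that was fixed as the seed relative. They are shown with the seed in capitals because the seeds define which arms belong together.
rno-miR-28-5p: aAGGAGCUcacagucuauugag
rno-miR-708-5p: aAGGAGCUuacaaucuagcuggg
rno-miR-28-3p: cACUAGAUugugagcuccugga
rno-miR-708-3p: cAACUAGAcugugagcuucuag
miR-28-5p and miR-708-5p share the seed AGGAGCU, which no other of the 694 mature rat sequences in the RefSeq table carries, and 16 of 22 positions are identical when counted from the 5′ end. The seed of miR-28-3p, ACUAGAU, was found in no other mature sequence of that table, and neither was the seed of miR-708-3p.

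The vesicles of the breast cancer line carried 1 arm of each hairpin at a high level, miR-151-5p and miR-28-3p, and the partner arms at low levels. In the vesicles of the PC12 line both arms of miR-151 were present at similar, modest levels and miR-28 was close to the limit of detection. miR-151-3p therefore did not share the high RMT1 level of miR-151-5p, although both come from the same hairpin.

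**Figure D1:**
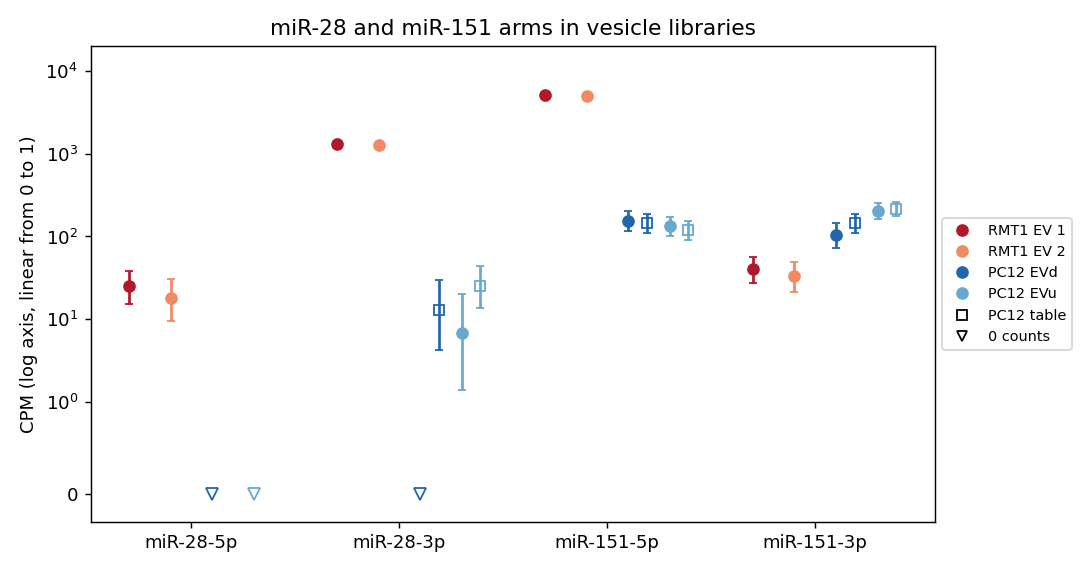
CPM of the 4 microRNAs in each library (log axis, linear from 0 to 1), with filled circles for the table of 4 libraries, open squares for the PC12 table, open triangles for 0 counts and bars for 95% counting intervals. miR-28-3p and miR-151-5p sit at 1275 to 1323 and 5031 to 5047 CPM in RMT1, above all PC12 values, and miR-151-3p sits lower in RMT1 than in PC12 by this scale.

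rno-miR-151-5p was the most abundant member. It had 4034 and 3607 counts in RMT1 EV 1 and 2, or 5047 and 5031 CPM, against 52 counts in PC12 EVd (154 CPM, 115 to 202) and 58 in PC12 EVu (133 CPM, 101 to 172). Both RMT1 libraries lay far above both PC12 libraries, and miR-151-5p ranked 21 among all names in each RMT1 library, 146 in EVd and 156 in EVu. It made up 0.504% ± 0.00115 of RMT1 counts (SD, n = 2), and the pooled share was 35.5-fold (29.4 to 43.3) that of PC12. The PC12 table gave the same picture of the PC12 side, with 56 counts in EVd and 61 in EVu. Set across the separately made tables, the ratio was 38.7 (32.3 to 46.9).

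rno-miR-151-3p had 32 and 24 counts in RMT1 EV 1 and 2, or 40.0 and 33.5 CPM, against 35 counts in PC12 EVd (103 CPM, 72.1 to 144) and 89 in PC12 EVu (204 CPM, 164 to 251). By CPM the RMT1 libraries lay below both PC12 libraries, with a pooled share 0.231-fold (0.165 to 0.319) that of PC12. In the authors' scaling, which was set over the 4 libraries together, the log2 values were 5.99 and 5.89 in RMT1, 5.97 in EVd and 6.90 in EVu. On that scale the groups overlapped, so the place of miR-151-3p relative to PC12 depended on the scaling and on EVu.

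rno-miR-28-3p came next in RMT1. It had 1057 and 914 counts in RMT1 EV 1 and 2, or 1323 and 1275 CPM, against 0 counts in PC12 EVd and 3 in PC12 EVu (6.87 CPM, 1.42 to 20.1). The floor taken for a count of 0, 3 counts, is 8.87 CPM in EVd, and the exact interval there reaches 10.9 CPM. The RMT1 libraries, where it ranked 41 and 40, stood clear of both PC12 libraries, and its mean was 1299 ± 33.7 CPM (SD, n = 2). The pooled share was 336-fold (115 to 1630) that of PC12 within this table. The PC12 table listed more counts for the same PC12 libraries, 5 in EVd and 13 in EVu. Against those 18 counts the ratio was 64.9 (41.0 to 110), a value set across separately made tables, so the size of the difference depended on the table while its direction did not.

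rno-miR-28-5p, the arm that shares its seed with miR-708-5p, was the least abundant member. It had 20 and 13 counts in RMT1 EV 1 and 2, or 25.0 and 18.1 CPM, against 0 counts in both PC12 libraries. With a floor of 3 counts over the PC12 libraries, its level in RMT1 was at least 15.3-fold higher on the authors' scale. With CPM as the scale it was at least 5.48-fold higher. These bounds leave out the counting error of the RMT1 counts, and the exact interval for the ratio of pooled shares starts at 4.32. It has no entry in the PC12 table. Every name listed there had at least 10 counts in 1 of the libraries, so a level below that in both libraries cannot be seen in it.

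The RMT1 libraries differed from each other by no more than counting error for each of the 4 members. The log2 ratio of RMT1 EV 1 over RMT1 EV 2 was 0.00 (-0.06 to 0.07) for miR-151-5p, 0.05 (-0.08 to 0.18) for miR-28-3p, 0.26 (-0.55 to 1.09) for miR-151-3p and 0.46 (-0.61 to 1.59) for miR-28-5p. In RMT1 the order of levels was miR-151-5p, miR-28-3p, miR-151-3p and miR-28-5p, and the intervals of the last pair overlapped in each library. In PC12 EVd miR-151-5p and miR-151-3p could not be ordered beyond counting error in either table, and in PC12 EVu miR-151-3p was above miR-151-5p, with miR-28-3p far below both.

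On the authors' log2 scale the differences, as the mean of the RMT1 pair minus the mean of EVd and EVu, were 6.63 for miR-151-5p and -0.49 for miR-151-3p. The value for miR-28-3p was 10.09, with its 0 counts in EVd entered as 0 as the authors did. The median over the 278 names with a mean linear value of at least 10 was -1.12, and scaling by library totals moved that median to -2.54. Relative to the median, miR-28-3p stood at 11.20 and 11.40 under these scalings, miR-151-5p at 7.75 and 7.67, and miR-151-3p at 0.62 and 0.58. So miR-151-3p was below 0 and yet above the typical name under both. Of the 4 members 3 were at least 2-fold higher in RMT1 in the authors' scaling, where 35.3% of the 278 names were, and none was 2-fold lower, where 51.4% were. Both RMT1 libraries were above both PC12 libraries for 3 members, as for 38.5% of names. Library totals moved these shares to 21.2% past 2-fold upward and 61.2% past 2-fold downward, with miR-151-3p, at -1.96, on the downward side. miR-28-5p and miR-28-3p entered the 278 through their RMT1 values alone, and nothing is read from these counts.

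**Figure D2:**
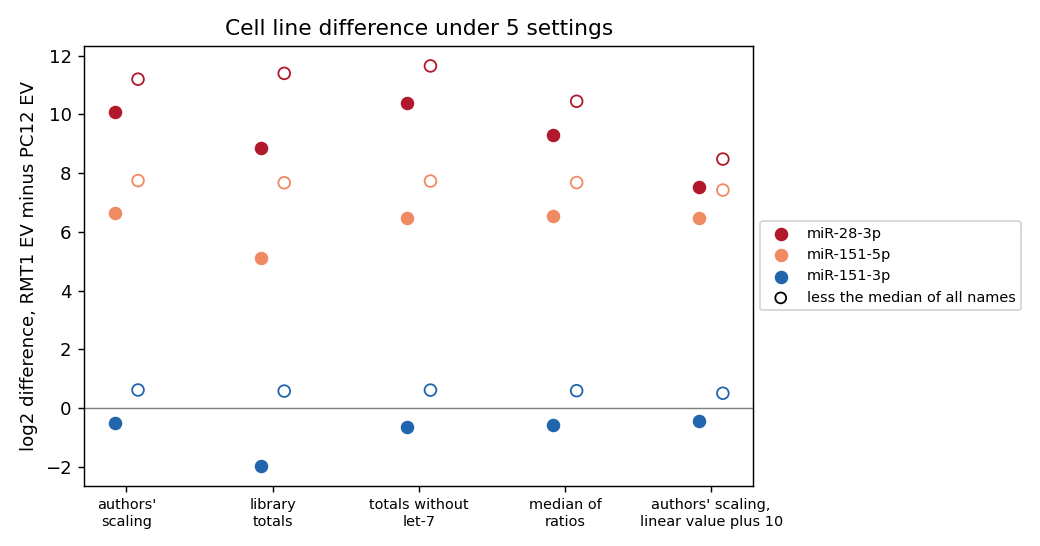
Log2 difference of RMT1 EV minus PC12 EV for miR-28-3p, miR-151-5p and miR-151-3p under 5 settings on the horizontal axis, as such (filled) and less the median of the 278 names (open). Relative to the median miR-151-5p stays between 7.43 and 7.75 and miR-151-3p between 0.51 and 0.62, while miR-28-3p, with 3 counts in PC12, spans 8.48 to 11.65.

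The balance of arms within a library does not depend on scaling. In RMT1 EV 1 and 2, 99.2% (98.9% to 99.5%) and 99.3% (99.0% to 99.6%) of miR-151 counts were 5p, a ratio of 126 and 150 to 1. In PC12 EVd 59.8% (48.7% to 70.1%) of 87 counts were 5p, and in PC12 EVu 39.5% (31.5% to 47.8%) of 147 counts. The RMT1 pair stood apart from both PC12 libraries, whose values lay on either side of even arms. As log2 of 5p over 3p, the pooled values were 7.09 (6.71 to 7.50) in RMT1 and -0.17 (-0.56 to 0.21) in PC12, a difference of 7.26 (6.71 to 7.82). Between the RMT1 libraries the difference was 0.25 (-0.56 to 1.08).

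miR-28 leaned the other way in RMT1, where 1.86% (1.14% to 2.85%) and 1.40% (0.749% to 2.39%) of its counts were 5p, with 52.9 and 70.3 counts of 3p to each of 5p. The hairpins therefore favoured opposite arms in the same libraries. With 3 miR-28 counts in PC12, the arm balance of miR-28 was not measurable there.

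**Figure D3:**
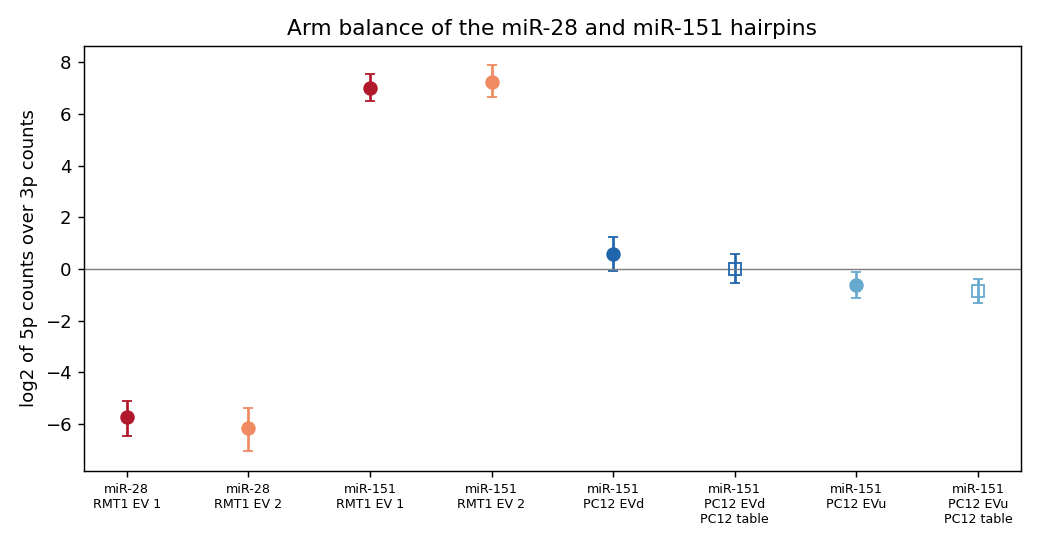
Log2 of 5p counts over 3p counts for miR-28 in the RMT1 libraries and for miR-151 in all 4 libraries, with 95% counting intervals. Filled circles are the table of 4 libraries and open squares the PC12 table. miR-28 lies near -6 and miR-151 near 7 in RMT1, against -0.85 to 0.57 for miR-151 in PC12.

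The shift of miR-151 was set beside the other hairpins with both arms named and at least 50 counts in each cell line, 75 in all. Large shifts were common: 57 of the 75, or 76.0%, had a 5p over 3p ratio at least 2-fold apart between RMT1 and PC12, 34 toward 5p and 23 toward 3p in RMT1. The median absolute shift was 2.27 on the log2 scale, against 0.34 between the RMT1 libraries and 0.41 between EVd and EVu. With 0.5 added to each count, miR-151 shifted by 7.25 and ranked 4 from the most 5p-ward, and 7 of the 75 hairpins shifted by at least that much in either direction. The shifts reached 8.31 and -7.80, and 26 of the 75 hairpins had 0 counts of 1 arm in a cell line, which makes such values rough. Of the 47 hairpins with both arms past the mean of 10, 22, or 46.8%, had 1 arm at least 2-fold higher in RMT1 and the other not, as miR-151 had.

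Near-even arms, as miR-151 had in PC12, were uncommon in the table of 4 libraries. With 0.5 added to each count, the median absolute log2 ratio of arms there was 7.10 in RMT1 and 6.64 in PC12. In PC12, 7 of the 75 hairpins had arms within a fold of 2 of each other. These were miR-151, miR-674, miR-361, miR-15b, miR-324, miR-450b and miR-374, and miR-674 lay closest to miR-151, with 7.52 in RMT1 and 0.25 in PC12. The list depended on the table. In the PC12 table miR-122, miR-1839 and miR-320 (-0.87) were within that fold too, and miR-324 (1.14) was not. The log2 ratio of miR-1839, for example, was 9.58 in the table of 4 libraries and -0.38 in the PC12 table. In the table of 4 libraries the leading arm differed between the lines in 4 hairpins, namely miR-151, miR-542, miR-106b and miR-339. For miR-151 the PC12 interval included even arms there. In the PC12 table it did not, with a pooled log2 ratio of -0.50 (-0.86 to -0.15) that favoured 3p. This list depended on the table too. With the PC12 table, 3p also led in PC12 for miR-15b (-0.32), miR-122 (-0.63) and miR-1839 (-0.38), values given without intervals. In RMT1 the other arm led for these, with log2 ratios of 5.55, 6.92 and 8.53. All of these hairpins were chosen for naming after their values were seen.

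**Figure D4:**
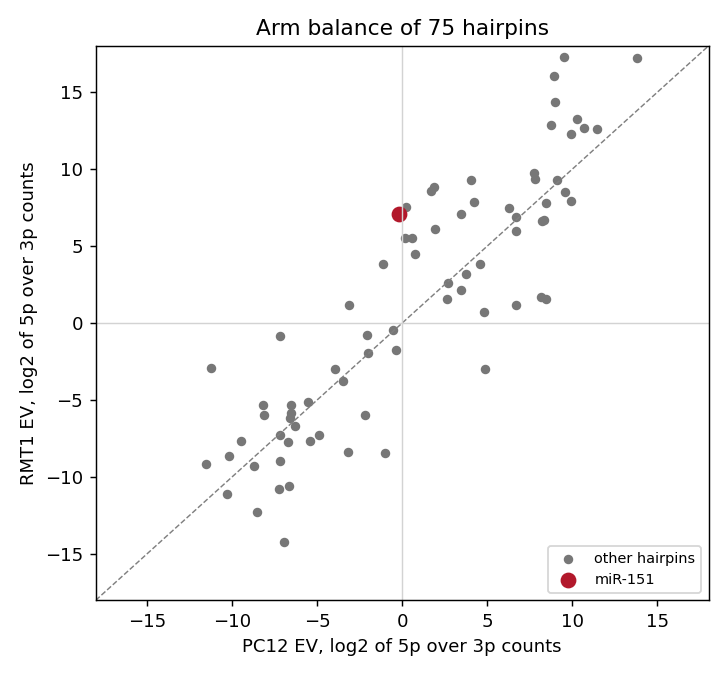
Log2 of 5p over 3p counts in RMT1 EV (vertical) and PC12 EV (horizontal) for 75 hairpins, with 0.5 added to each count, libraries pooled within a cell line and the dashed line marking equal values. miR-151 (red) lies at 7.08 and -0.17, near the vertical line of even arms in PC12 and far above the dashed line.

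How far this depends on the table can be judged on the PC12 side alone. Of the 75 hairpins 68 had both arms in the PC12 table, where the pooled PC12 arm ratio differed from that of the table of 4 libraries by a median of 0.67 on the log2 scale, and by at least 2-fold for 29. For miR-151 the tables differed by 0.33. With the PC12 table in its place, miR-151 shifted by 7.58 and ranked 5 from the most 5p-ward of 68, of which 83.8% were at least 2-fold apart, with a median absolute shift of 3.71. RMT1 has no second table, so its arm ratios rest on 1 table.

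Between the PC12 libraries the arms of miR-151 diverged slightly. In the PC12 table miR-151-3p had 56 counts in EVd (145 CPM) and 110 in EVu (215 CPM), a log2 ratio of -0.57 (-1.06 to -0.09), with the EVd library the lower. miR-151-5p had 56 counts in EVd (145 CPM) and 61 in EVu (119 CPM), a log2 ratio of 0.28 (-0.27 to 0.83), which is within counting error. Neither arm of miR-151 reached a log2 ratio of 1, a size that 15.2% of the 528 names averaging 10 or more counts reached upward in EVd and 7.95% downward. The median absolute log2 ratio over those names was 0.56, so the value of miR-151-3p was of typical size. With 1 library each there is no replicate check and no test.

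The 5p share of miR-151 was 56 of 112 counts (interval 40.4% to 59.6%) in EVd and 61 of 171 counts, or 35.7% (28.5% to 43.3%), in EVu in the PC12 table, a difference of 0.85 (0.11 to 1.59) on the log2 scale. In the table of 4 libraries this difference was 1.18 (0.36 to 2.02), also toward 5p in EVd. The 6 blood and liver names fixed as markers of other cells summed to 62.6 and 57.2 CPM in RMT1 EV 1 and 2, 85.7 in EVd and 1449 in EVu. They were thus highest in EVu, the library with the most miR-151-3p, and their part in that result was not tested. The red cell microRNA miR-451-5p had 0 counts in both RMT1 libraries, 2 in EVd and 38 in EVu, and 4 of the 6 names were at 0 in RMT1 EV 2.

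miR-28-3p had 5 counts in EVd (12.9 CPM) and 13 in EVu (25.4 CPM) in the PC12 table, a log2 ratio of -0.92 (-2.81 to 0.61). The counts are too few to tell the libraries apart, and with a mean under 10 it is not among the 528 names.

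The seed relative miR-708-5p had 54 counts in each RMT1 library, or 67.6 and 75.3 CPM, against 4 counts in PC12 EVd and 2 in PC12 EVu. The RMT1 libraries were above both PC12 libraries, with a pooled share 9.20-fold (4.09 to 25.6) that of PC12. The PC12 table gave more counts here too, 9 in EVd and 16 in EVu, and against these the ratio, set across tables, was 2.56 (1.65 to 4.13). miR-708 has been studied as a suppressor of metastasis in human breast cancer. Together miR-28-5p and miR-708-5p had 74 and 67 counts in RMT1, against 4 in EVd and 2 in EVu, and miR-708-5p contributed the larger part in every library. They were the carriers of the AGGAGCU seed among the 694 RefSeq sequences, in which no miR-151 arm was found. miR-708-3p had 13 and 4 counts in RMT1, against 0 in EVd and 1 in EVu. miR-708 favoured 5p in RMT1, at 80.6% (69.1% to 89.2%) and 93.1% (83.3% to 98.1%), unlike miR-28, whose 5p arm carries the same seed.

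The names with the most similar profiles were found as the smallest Euclidean distance between authors' log2 values over the 4 libraries, each profile centred on its own mean. For miR-151-5p these were miR-200b-5p (distance 0.24), miR-429 (0.55) and miR-141-3p (0.70), all of the epithelial miR-200 family. miR-429, for example, had 640 and 522 counts in RMT1, 5 in EVd and 8 in EVu. For miR-28-3p they were miR-205 of basal epithelium (0.10), miR-449a-5p of ciliated epithelium (1.003) and miR-466b-5p (1.52), each with at most 10 counts in a PC12 library. For miR-28-5p they were let-7g-5p (0.31), miR-423-5p (0.44) and miR-320-3p (0.50), although miR-28-5p had 0 counts in PC12 and these had 115 to 1904. For miR-151-3p they were miR-15a-5p (0.30), miR-425-5p (0.51) and miR-126a-3p (0.53), with differences between RMT1 and PC12 of -0.50, -0.54 and -0.08 on that log2 scale. The distances of miR-28-5p rest on its 0 counts in PC12 entering as 0. The nearest match of miR-151-5p rests on this too, as miR-200b-5p had 0 counts in both PC12 libraries. There miR-151-5p itself had 52 and 58 counts. For miR-28-3p, 0 counts in EVd entered as 0 for itself, miR-449a-5p and miR-466b-5p, and in EVu for miR-466b-5p as well. With 4 libraries such likeness is a description.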

How the data were processed

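Small RNA libraries of RMT1 EVs (n = 2), PC12 EVd and PC12 EVu (1 each) were analysed from 2 deposited tables. The PC12 table holds raw counts, per the file headers, with the authors' log2 normalized values, each the logarithm of a count multiplied by the library's factor (1.15 for EVd, 0.886 for EVu). Of its 594 names 66 are piRNAs. The table of 4 libraries holds log2 values that the authors scaled jointly and set to 0 for a count of 0. Made linear, 100% of its values above 0 lay within 0.1 of whole multiples of the library's lowest value, and these multiples are the counts used here. The submitters' processing notes name the mouse build mm10. Not given in the sources used here are the aligner, the counting program, the scaling method, and whether counts are reads or molecules.

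CPM, shares, ratios of pooled shares and arm ratios were computed with exact Clopper-Pearson or exact conditional intervals (Python 3.11.15, scipy 1.17.1, pandas 2.3.3, numpy 2.4.6). Log2 ratios of EVd over EVu used CPM plus 1. The design made no test: the members and lists were chosen with earlier results of these data known, and each PC12 group has 1 library. The computations were tested on simulated data. The genes named by rule were the 4 members, both miR-708 arms and the 3 nearest profiles to each member among names with a mean linear value of at least 10. The RMT1 libraries differed by more than sampling noise overall (chi-square 6.84 per degree of freedom over 177 names) and were kept as 2 samples. The comparisons of all hairpins and of arm ratios between tables were added after the values were seen.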

Additional observations from a re-analysis of the deposited data

How the results depend on the processing

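No paired analysis was possible because PC12 EVd and EVu have 1 library each and share fewer than 2 replicate numbers with RMT1. The direction of the RMT1 minus PC12 difference was kept for miR-28-3p and miR-151-5p under the 8 alternatives run for each. For miR-151-3p the difference stayed negative under its 8, but it nearly vanished without EVu (-0.032). Less the median of all names it was positive under each, from 0.18 without EVd to 0.88 without EVu. For miR-28-3p the difference (10.09 as reported) was 8.86 by library totals, 10.38 by totals without let-7, 9.30 by median-of-ratios size factors and 7.53 with 10 added to the linear values. For miR-151-5p (6.63) it was 5.13 by library totals, 6.46 by totals without let-7 and 6.48 with 10 added. For miR-151-3p (-0.49) it was -1.96 by library totals and -0.65 by totals without let-7. The bound for miR-28-5p (15.3-fold) was 5.48-fold by library totals. Leaving out each library in turn gave 9.08 to 11.09 for miR-28-3p, 6.50 to 6.77 for miR-151-5p, -0.96 to -0.032 for miR-151-3p (-0.032 without EVu and -0.96 without EVd) and 6.68-fold to 16.9-fold for the bound (8.95-fold without EVd, 6.68-fold without EVu). At least 2-fold higher in RMT1 were 98 of the 278 names, or 59 by library totals, and 143 were lower. With no filter on low values, and so over more names, 215 were lower. At least 2-fold higher in EVd were 80 of the 528 names, and 42 were lower. In the table of 4 libraries 26 were higher, among the names that averaged 10 or more PC12 counts there, which is another set. With no filter 66 of the 594 names were lower. For miR-708-5p, EVd against EVu was at -0.41 from 25 counts of the PC12 table but at 1.20 from 6 counts of the other table. For miR-28-3p no EVd over EVu comparison is made in the table of 4 libraries, where its 0 and 3 counts do not exceed the floor of 3. The directions of EVd against EVu for miR-151-5p, miR-151-3p and, within the PC12 table, miR-28-3p were kept under each alternative run. The cause of these moves was not tested. In the table of 4 libraries miR-28 in PC12 did not exceed the floor of 3 counts, which is 8.87 CPM in EVd and 6.87 in EVu. The PC12 table listed 5 counts of miR-28-3p in EVd and 13 in EVu, and the cause of that difference was not tested.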
